A study of Mus musculus with 8 samples.

Results

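The MHC class II presentation genes were followed here in single cells of the mouse colon: the chains H2-Aa, H2-Ab1 and H2-Eb1, the invariant chain Cd74, the peptide editors H2-DMa, H2-DMb1 and H2-Oa, and the transactivator Ciita. These 8 genes were chosen by name, by a rule that uses no measured value but was written with earlier results of these data known, from the 16889 genes of the matrix of unique molecular identifiers (UMIs, which count captured transcripts), and all 8 passed the filters on low counts. CD11b+ cells that carried CCR2 or CD64 had been sorted from the colonic lamina propria of 8 female CD98hcΔCX3CR1 mice, which are CD98hc flox/flox animals with a tamoxifen-inducible Cre and YFP under Cx3cr1. The 4 control mice received corn oil and the 4 cKO mice received tamoxifen on 5 consecutive days, and cells were taken on day 7, with 1 library per mouse. All 8 mice carried the same alleles, so tamoxifen itself and the loss of CD98hc cannot be told apart in these groups, and Cre acts only in cells that express, or descend from cells that expressed, Cx3cr1. The methods give ages only as a range of weeks over all experiments.

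MHC class II molecules are dimers of an alpha and a beta chain that show peptides from the endosomal pathway to CD4+ T cells. H2-Aa and H2-Ab1 encode the alpha and beta chains of I-A, and H2-Eb1 encodes the beta chain of I-E. Cd74 encodes the invariant chain, which fills the peptide groove of new dimers and guides them to endosomes. There its last fragment is exchanged for peptide by H2-DM (H2-DMa and H2-DMb1), which H2-O (H2-Oa with H2-Ob) inhibits. Ciita is the co-activator that assembles on the conserved X and Y boxes of these promoters. Dendritic cells and B cells carry class II constitutively. In the colon, Ly6C-high monocytes that enter from the blood gain it as they become resident macrophages, the series known as the monocyte waterfall.

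In GRCm38 (GENCODE vM21), 6 of the 8 genes lie within 224 kb of chromosome 17: H2-Oa at chr17:34092340-34095234, H2-DMa at chr17:34119541-34139101, H2-DMb1 at chr17:34153072-34160230, H2-Ab1 at chr17:34257689-34269419, H2-Aa at chr17:34282744-34287823 on the minus strand and H2-Eb1 at chr17:34305867-34316674. Ciita is at chr16:10480059-10528418. H2-DMb1 has a near-identical neighbour, H2-DMb2, and H2-Eb1 a paralog, H2-Eb2, so the split of reads within each of these pairs is uncertain.

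Promoter stretches are shown because Ciita assembles on such boxes. Their part in the changes reported below was not tested. The RefSeq promoter table (GRCm38.p6, windows of 250 bases before to 50 bases after a transcript start) held a window for 5 of the 8 members. H2-Ab1, Cd74 and Ciita were not matched. Capitals mark a Y-box core (GATTGG), an X-box match (AACNGATG) or an X2 match (TGACGTCA), each given 5′ to 3′ on the strand of the gene:
H2-Aa, chr17:34287857-34287907, minus strand: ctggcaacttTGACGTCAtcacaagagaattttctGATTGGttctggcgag
H2-Eb1, chr17:34305772-34305822, plus strand: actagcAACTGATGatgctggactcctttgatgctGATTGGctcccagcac
H2-DMb1, chr17:34153094-34153144, plus strand: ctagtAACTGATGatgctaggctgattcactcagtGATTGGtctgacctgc
H2-Oa, chr17:34092300-34092350, plus strand: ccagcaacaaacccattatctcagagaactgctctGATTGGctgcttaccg

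The Y core began 49 bases before the start site in H2-Aa, 60 in H2-Eb1, 62 in H2-DMb1 and 44 in H2-Oa. The bases between the upstream match and the Y core numbered 17 in H2-Aa, 21 in H2-Eb1 and 22 in H2-DMb1, while the H2-Oa stretch held neither the X nor the X2 letters. H2-DMa has a pair of windows, 1 with the Y core and 1 with none of these motifs. On both strands together, 16.1% of all 32851 windows of this length held the Y core, 2.32% the X letters and 1.79% the X2 letters. These matches describe letters and do not show binding.

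After the study's filters on cells (at least 2.8 log10 UMIs, at least 2.6 log10 genes, at most 5% mitochondrial UMIs and no hemoglobin UMI), 3213 of 5947 barcodes remained, 1863 from control and 1350 from cKO mice. Control 3 and cKO 5 gave only 85 and 83 cells, and the other mice 349 to 724. Each mouse contributed 497531 to 3762314 UMIs, with medians of 4149 to 5538 UMIs per cell. In the library of cKO 5, 24 of 83 cells were called doublets, against 2.27% of all cells kept, and 8 barcode names among the kept cells occurred in more than 1 library. Slc3a2, which encodes CD98hc, was at 358, 264, 233 and 493 CPM (UMI counts scaled to the same total in each library) in the controls and 291, 357, 323 and 309 CPM in the cKO mice. The 3′ tags counted here lie outside the excised exon 3, so these values do not check the deletion.

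The first comparison asked whether the sorted population as a whole carried less class II RNA after the treatment. It did: UMIs summed over all cells of a mouse were lower in the cKO mice for H2-Aa, H2-Ab1, H2-Eb1, Cd74, H2-DMa, H2-Oa and Ciita, and 7 of the 8 genes fell. The same call was reached by 1.48% of the 11387 genes tested, and 2.99% rose (edgeR's quasi-likelihood test, Benjamini-Hochberg adjusted p under 0.05). The median log2 change was -0.82 over the members and -0.03 over all genes tested.

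H2-Aa was at 11057, 10878, 8642 and 11022 CPM in control 1 to 4 and at 6050, 5414, 4734 and 5743 CPM in cKO 5 to 8. H2-Ab1 was at 14646, 15119, 11176 and 14046 CPM against 8412, 7858, 6704 and 7956 CPM. H2-Eb1 was at 9197, 9297, 7560 and 8145 CPM against 5180, 4286, 3541 and 4552 CPM. Control 3, a library with few cells, was the lowest control for each chain and cKO 7 the lowest cKO mouse, and the groups did not overlap. The log2 changes were -0.83 ± 0.13 (SE, adjusted p = 0.0047, edgeR) for H2-Aa, -0.74 ± 0.13 (adjusted p = 0.010) for H2-Ab1 and -0.87 ± 0.14 (adjusted p = 0.0055) for H2-Eb1.

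The invariant chain was at 29370, 27102, 24913 and 24722 CPM in the controls and at 19754, 17751, 14304 and 17925 CPM in the cKO mice. Its change of -0.51 ± 0.13 (adjusted p = 0.044, edgeR) was the smallest of the 7 that were called, and it missed the threshold in 5 of the 8 fits that left out 1 mouse, with adjusted p of 0.025 to 0.14. Among the editors, H2-DMa was at 1342, 1252, 976 and 1292 CPM against 744, 677, 510 and 689 CPM, a log2 change of -0.80 ± 0.15 (adjusted p = 0.012). H2-DMb1, its partner in the H2-DM dimer, was at 1115, 1031, 908 and 1033 CPM against 776, 721, 529 and 682 CPM. With a change of -0.50 ± 0.14 and an adjusted p of 0.061, H2-DMb1 did not pass, although all 4 cKO values lay below all 4 control values.

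H2-Oa, the editor that restrains H2-DM, was at 65.1, 96.9, 56.0 and 84.1 CPM in the controls and at 40.2, 15.1, 13.3 and 20.6 CPM in the cKO mice, with cKO 5 nearest to the controls. Its log2 change of -1.87 ± 0.28 (adjusted p = 0.0047, edgeR) was the largest of the members. Ciita was at 47.8, 52.3, 37.3 and 42.1 CPM against 28.1, 30.8, 14.1 and 17.9 CPM, a change of -0.98 ± 0.24 (adjusted p = 0.039), which missed the threshold in 4 of 8 fits that left out 1 mouse. For all 8 members every cKO value lay below every control value, which was so for 8.34% of all genes tested. Without control 3 and cKO 5, the mice with under 100 cells, 8 members were called, beside 470 of 11259 genes in either direction. Without doublet calls 5 were called, beside 350 of 11350 genes. Cd74 (adjusted p = 0.088, edgeR) and Ciita (adjusted p = 0.064, edgeR) were then no longer past the threshold.

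**Figure D1:**
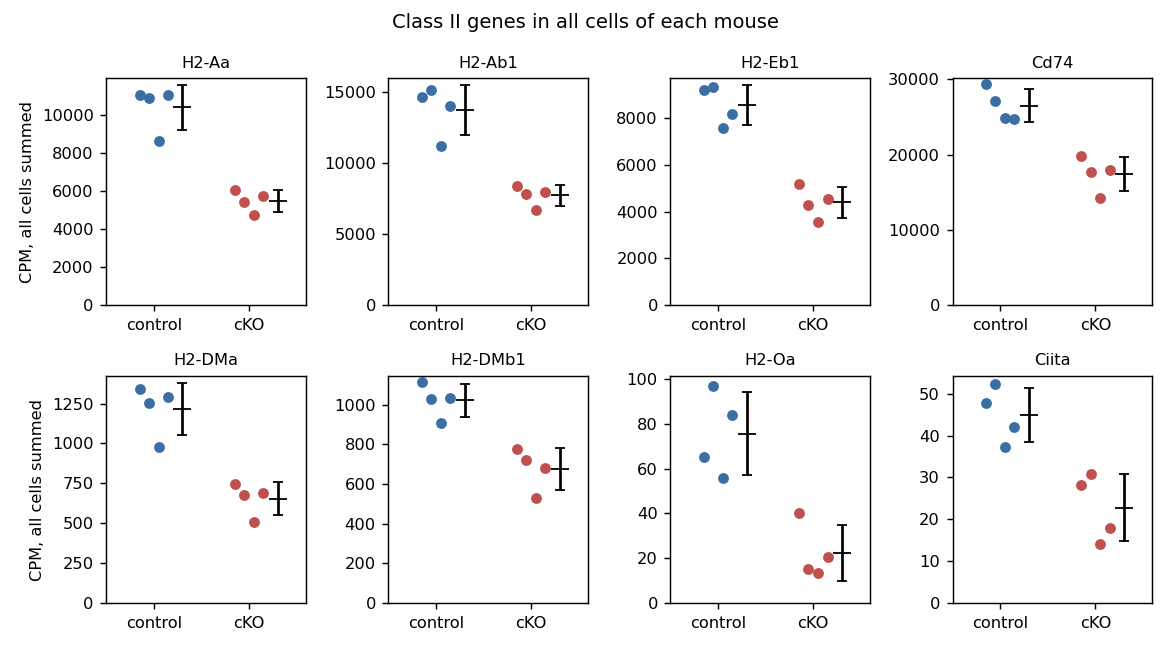
Level of each class II gene in all cells of a mouse, in CPM from 0 on a linear axis, with 1 point per mouse (4 control, 4 cKO) and, beside them, the group mean with its SD. For each of the 8 genes, all 4 cKO points lie below all 4 control points.

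The mix of cells differed between the groups. Cells were clustered without the members, the pathway lists and interferon-regulated genes. The 9 clusters were named from fixed markers or, failing that, by their leading genes, with 1 exception. The Ccr2-led cluster (301 cells) also met the marker rule for monocytes, through 1 marker (Ccr2), but was kept apart under its leading gene. Monocyte-like therefore means only the cluster with 5 monocyte markers among its 10 leading genes. Dendritic cell-like cells were 20.2% to 27.5% of the cells of a control mouse and 4.75% to 9.64% of those of a cKO mouse. Monocyte-like cells were 5.74% to 9.29% against 20.5% to 29.96%. Cells led by Il1a and Saa3 took 2.57% to 26.4% against 18.1% to 39.3%. In these summed libraries fewer cells of a type and less RNA per cell cannot be told apart, so the values within classes are given further on.

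The dendritic cell-like cells gave 42.0% of all H2-Aa UMIs in the controls and 22.1% in the cKO mice, and the Il1a and Saa3-led cells 12.9% and 37.9%. H2-Oa came mostly from 1 class: 92.1% of its control UMIs and 70.4% of its cKO UMIs were in dendritic cell-like cells. Without the dendritic cell-like cells, an alternative added after the data were seen, the change of H2-Oa was -0.77 ± 0.43 (adjusted p = 0.37, edgeR) and that of Ciita -0.86 ± 0.29 (adjusted p = 0.13). The other 6 members were then called, beside 387 of the 10841 genes tested, called in either direction. H2-Aa was at -0.90, H2-Ab1 at -0.78, H2-Eb1 at -1.02, Cd74 at -0.60, H2-DMa at -0.89 and H2-DMb1 at -0.60. These estimates for the chains, Cd74 and H2-DM were no smaller than those over all cells. The remaining classes still differed in share between the groups, as given above, and the part of the mix in these changes was not tested.

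Other genes of the pathway were taken from lists. In all cells summed, 1 of 3 tested other class II chains fell, H2-Ob (log2 change -1.53 ± 0.28, adjusted p = 0.012, edgeR), which is the partner of H2-Oa. Of 8 lysosomal processing genes, 3 rose and none fell, namely the cathepsins Ctsb (0.71 ± 0.14, adjusted p = 0.020), Ctsd (0.78 ± 0.16, adjusted p = 0.018) and Ctsz (0.71 ± 0.17, adjusted p = 0.035). Ctss, the cathepsin that trims the invariant chain in antigen-presenting cells, was at 0.60 ± 0.16 with an adjusted p of 0.053. Among the genes for class II transcription, Irf8 fell (-0.89 ± 0.18, adjusted p = 0.020), which is needed for conventional type 1 dendritic cells. None of the 3 tested genes for class II turnover was called, and of 6 genes for co-stimulation Cd274, the ligand PD-L1, rose (1.37 ± 0.34, adjusted p = 0.044).

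Of 9 class I counterparts, 4 rose, none fell and 5 were not called. B2m, the light chain of class I, rose by 1.005 ± 0.15 (adjusted p = 0.0047, edgeR), H2-K1 by 0.68 ± 0.13 (adjusted p = 0.015) and H2-D1 by 0.61 ± 0.14 (adjusted p = 0.032) on the log2 scale. Nlrc5, the class I counterpart of Ciita, rose by 0.97 ± 0.23 (adjusted p = 0.038). In the monocyte-like cells and in each other cluster tested, no gene of these pathway lists was called. The nearest in monocyte-like cells were H2-K1 (0.73, adjusted p = 0.051) and B2m (0.73, adjusted p = 0.062).

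The level of the members by cell class is a description, since the classes are clusters. Among the myeloid and dendritic classes of the controls, H2-Ab1 was highest in macrophage-like cells, at 19514 ± 622 CPM (SD, n = 3 mice), then 16723 ± 749 in conventional type 1 dendritic cell-like (cDC1-like) and 16705 ± 862 in type 2 (cDC2-like) cells. The macrophage-like value was above that of cDC1-like cells in 3 of 3 mice, by 0.22 ± 0.08 on the log2 scale, while the cDC1-like and cDC2-like values did not differ beyond their spread. Il1a and Saa3-led cells (15574 ± 674, n = 2), Ccr2-led cells (12896 ± 1267), Cebpb-led cells (12778 ± 1529) and low-RNA macrophage-like cells (11722 ± 2071) followed. From the Ccr2-led cells downward these neighbours did not differ beyond their spread. Monocyte-like cells stood apart at 2161 ± 373 CPM, below the next class in 3 of 3 mice by 2.44 ± 0.15 on the log2 scale.

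The other chains and Cd74 were also lowest in monocyte-like cells among these classes. H2-Aa was at 14185 CPM in control macrophage-like and 1585 CPM in control monocyte-like cells, H2-Eb1 at 13530 and 912 CPM, and Cd74 at 36315 ± 2228 and 4944 ± 1594 CPM. H2-DMa spread less between classes: Ccr2-led, cDC2-like, cDC1-like, macrophage-like and Il1a and Saa3-led cells lay between 1343 and 1636 CPM, with neighbours not beyond their spread. Control monocyte-like cells, at 690 ± 78.1 CPM of H2-DMa, were 0.65 ± 0.27 below the next class on the log2 scale.

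H2-Oa followed another order. It was at 226 ± 14.5 CPM in cDC2-like and 166 ± 16.4 CPM in cDC1-like control cells, with cDC2-like cells above in 3 of 3 mice. In the other myeloid classes it was between 0 and 15.6 CPM. Ciita was at 78.2 ± 7.47 CPM in cDC2-like, 53.2 ± 4.00 in cDC1-like, 47.9 ± 13.2 in macrophage-like and 8.40 ± 4.52 CPM in monocyte-like control cells. Control Cebpb-led cells were at 58.2 ± 32.3 CPM, and low-RNA macrophage-like cells at 4.87 ± 8.44 CPM, below the monocyte-like mean.

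**Figure D2:**
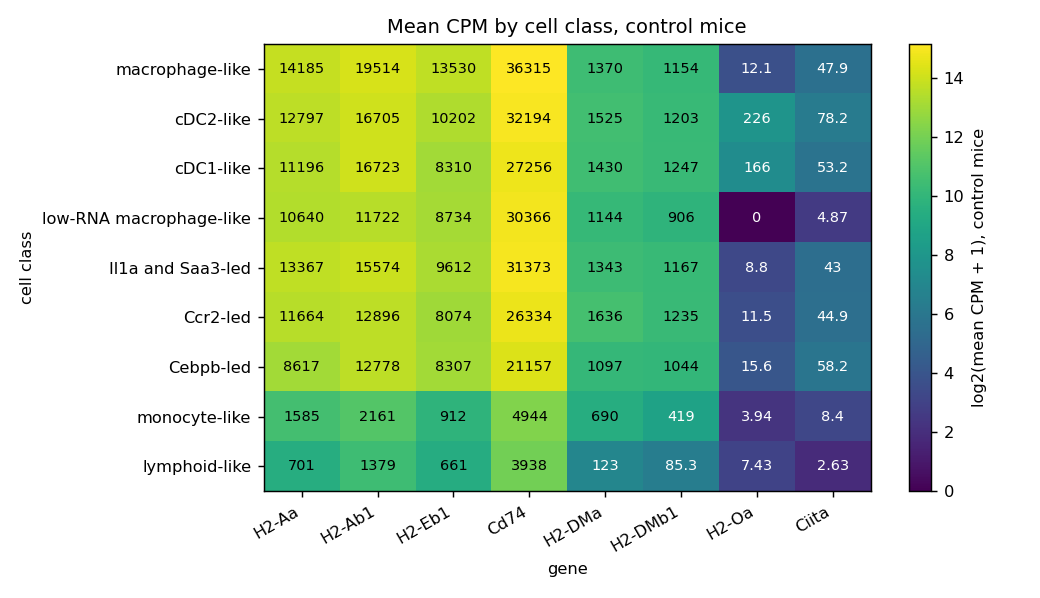
Mean CPM of each class II gene (columns) in each cell class (lines) of the control mice with at least 20 cells of the class, printed in each field and coloured by log2(mean CPM + 1). Among the myeloid and dendritic classes the monocyte-like cells are lowest for the chains, Cd74, H2-DMa and H2-DMb1, and H2-Oa is above 100 CPM in cDC1-like and cDC2-like cells alone of the classes drawn.

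Over the 47 sums of 1 mouse and 1 cluster, the profiles of 6 members followed that of H2-Ab1 more closely than that of H2-Oa did. Pearson's r of log2(CPM + 1) with H2-Ab1 was 0.99 for H2-Eb1 and H2-Aa, 0.95 for Cd74, 0.90 for H2-DMb1, 0.83 for H2-DMa, 0.75 for Ciita and 0.29 for H2-Oa. Outside the pathway, the genes most like H2-Ab1 were Gatm (0.86), Cxcl16 (0.80), Dab2 (0.76), Aif1 (0.75) and Fgd2 (0.75). Those most like Ciita were Fgd2 (0.73), Olfm1 (0.70), Rbpj (0.70), Otulinl (0.68) and Itgax (0.68). The sums of a mouse share its library, so these values are a description.

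The second comparison asked whether the monocyte-like cells themselves carried less class II RNA. It does not cover the Ccr2-led cells, which also met the monocyte rule but had too few sums for a test. In the monocyte-like cluster (476 cells; leading genes include Chil3, Mgst1, Ifitm6, Ly6c2 and F13a1), H2-Aa, H2-Ab1, H2-Eb1, Cd74, H2-DMa and H2-DMb1 fell in the cKO mice, 6 of the 8 members. Of the 11360 genes tested there, 0.158% fell. The median log2 change was -1.57 over the members and 0 over all genes. Mice 1, 2 and 4 of the controls and 6, 7 and 8 of the cKO had enough cells, with 29 to 53 and 78 to 145 monocyte-like cells. The edgeR p-values within clusters use a spread estimated over the sums of all clusters, several per mouse, taken as independent.

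H2-Ab1 was at 2517, 1772 and 2195 CPM in the controls and at 307, 341 and 1022 CPM in the cKO mice. H2-Aa was at 1974, 1167 and 1614 CPM against 192, 249 and 882 CPM. H2-Eb1 was at 1283, 649 and 803 CPM against 120, 141 and 450 CPM. In each case cKO 8 stood well above the other two cKO mice but below the lowest control. The log2 changes were -1.90 ± 0.26 (SE, adjusted p = 3.2e-06, edgeR) for H2-Ab1, -1.79 ± 0.29 (adjusted p = 0.00014) for H2-Aa and -1.89 ± 0.31 (adjusted p = 0.00014) for H2-Eb1, that is 3.73-fold, 3.46-fold and 3.72-fold lower. All these calls were kept in each of the 8 fits that left out 1 mouse, and without cKO 8 the changes were -2.62, -2.73 and -2.69. Control 3 and cKO 5 had no monocyte-like sum, so the fits without them removed no monocyte-like value.

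Cd74 was at 6772, 3844 and 4217 CPM in control and 1207, 1306 and 3109 CPM in cKO monocyte-like cells, a log2 change of -1.35 ± 0.24 (adjusted p = 0.00073, edgeR). H2-DMb1 was at 503, 328 and 426 CPM against 117, 169 and 214 CPM (-1.27 ± 0.27, adjusted p = 0.0071). H2-DMa was at 780, 656 and 635 CPM against 272, 319 and 397 CPM (-1.01 ± 0.24, adjusted p = 0.027). The groups did not overlap for any of these, but how often that holds over all genes in this cluster was not counted. The H2-DMa call was lost in 6 of the 8 fits without 1 mouse, that of Cd74 in 3 and that of H2-DMb1 in 2. Of these 8 fits, those without control 3 or cKO 5 removed no monocyte-like value. Clustering on all genes, the members included, moved cells between classes, and then only the chains were called (H2-Aa and H2-Ab1 at -1.27, H2-Eb1 at -1.39), with Cd74 at -0.60, H2-DMa at -0.55 and H2-DMb1 at -0.83. H2-Oa gave 0, 1 and 1 UMIs in the controls and 0, 0 and 2 in the cKO mice, and Ciita 3, 1 and 1 against 0, 1 and 1, so a difference in either was not detectable at this depth.

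**Figure D3:**
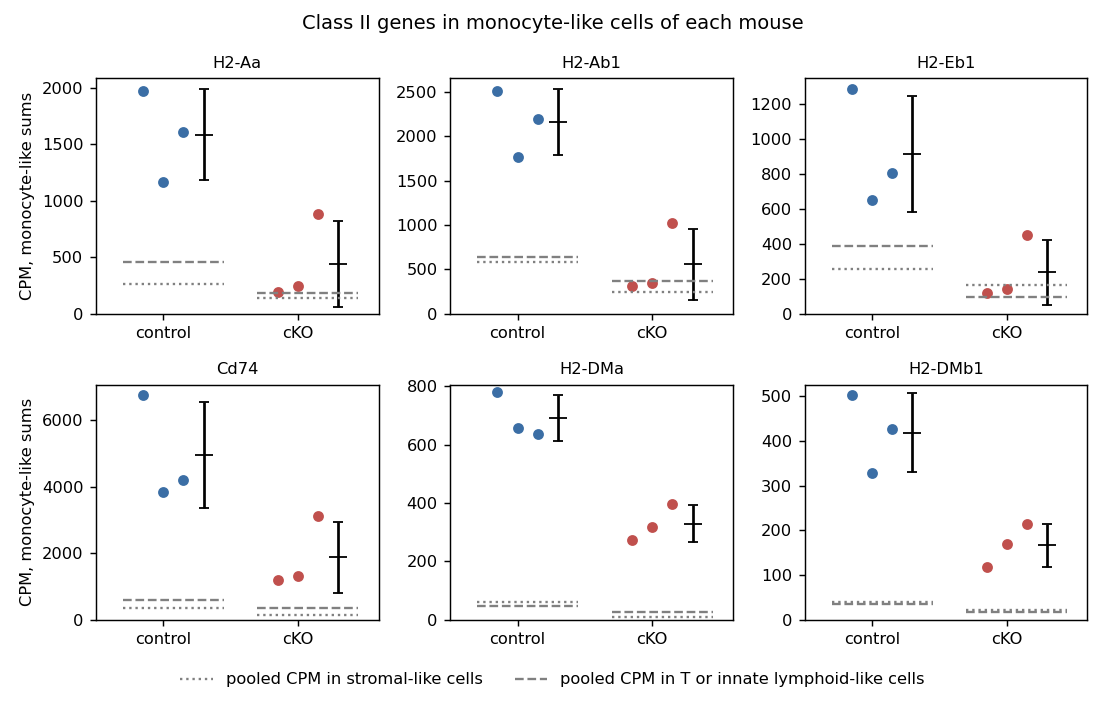
Level of 6 class II genes in monocyte-like cells, in CPM on linear axes, with 1 point per mouse (control 1, 2 and 4, cKO 6, 7 and 8), the group mean with its SD beside them, and lines at the pooled CPM of stromal-like (dotted) and T or innate lymphoid-like cells (dashed). All 3 cKO points lie below the 3 control points, a pattern not counted over all genes in this cluster. Mouse cKO 8 is the highest cKO mouse, and the cKO 6 and 7 points of the chains lie near the lines.

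Class II UMIs were also counted in stromal-like and T or innate lymphoid-like cells, in which little class II RNA is expected, and their levels are used here as the background. Whether these UMIs come from free RNA was not tested. In stromal-like cells, pooled over mice, H2-Ab1 was at 585 CPM in control (68 cells) and 250 CPM in cKO (18 cells), and in T or innate lymphoid-like cells at 639 (54 cells) and 366 CPM (58 cells). H2-Aa was at 261 and 141 CPM in stromal-like and at 462 and 180 CPM in T or innate lymphoid-like cells, so that its cKO 6 and 7 values, at 192 and 249 CPM, were little above. The H2-Ab1 level of cKO 6 and 7, at 307 and 341 CPM, is therefore within the range of background, and those of cKO 8 and of all 3 controls are above it. H2-Eb1 was at 258 and 163 CPM in stromal-like and at 385 and 95.7 CPM in T or innate lymphoid-like cells. Its cKO 6 and 7 values lay between the cKO levels of these cells and are within background too. Cd74 was at 369 and 130 CPM in stromal-like and at 586 and 360 CPM in T or innate lymphoid-like cells, below every monocyte-like value. H2-DMa was at 10.9 to 60.0 CPM in these cells and H2-DMb1 at 16.9 to 39.0 CPM, also below every monocyte-like value. For all these members the background was itself lower in cKO than in control cells of each kind. Its part in the log2 changes was not tested. The ratio of H2-Ab1 to Cd74 UMIs was 1.65 in the stromal-like sum of control 1 and 0.90 in the T or innate lymphoid-like sum of cKO 8, 1 mouse each. In control sums it was 0.57 to 0.67 in cDC1-like, 0.56 to 0.66 in Cebpb-led, 0.49 to 0.59 in macrophage-like and 0.37 to 0.52 in monocyte-like cells. In cKO monocyte-like sums it was 0.25 to 0.33. What sets these ratios apart was not tested.

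The marker lists also moved within this cluster. The summed level of the 10 monocyte markers was 11022 to 12532 CPM in control and 16957 to 18240 CPM in cKO sums, all 10 being detected in each, and Ly6c2 was at 1390, 941 and 1419 CPM against 2881, 4031 and 4528 CPM. The 16 macrophage markers summed to 1084 to 1323 CPM against 733 to 1063 CPM, with 11 to 13 and 14 to 15 detected and Cd163 at 0 in every sum. The 16 dendritic cell markers summed to 1029 to 1350 CPM against 1350 to 1791 CPM, with Zbtb46, Clec9a, Itgae and Kit at 0 in every sum. Slc3a2 was at 428, 328 and 431 CPM against 249, 300 and 280 CPM (-0.46, adjusted p = 0.79, edgeR). The part of the marker shift in the class II difference was not tested.

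In the other clusters the estimates were mostly lower, but few passed. In macrophage-like cells H2-DMa was at 1393, 1387 and 1331 CPM in the controls and 736, 745 and 922 CPM in the cKO mice, a log2 change of -0.90 ± 0.23 (adjusted p = 0.048, edgeR), and it was the only 1 of 8 members called, beside 0.167% of all genes. H2-Aa was there at 14081, 14335 and 14139 CPM against 10483, 10741 and 10544 CPM, without overlap (not counted over all genes), but its change of -0.55 ± 0.27 had an adjusted p of 0.55. The macrophage markers in these sums were 26188 to 30919 CPM against 19396 to 23966 CPM, and the monocyte markers 383 to 532 CPM against 846 to 1495 CPM. Lymphoid markers reached 8612 CPM in 1 cKO sum, against at most 741 CPM in the controls.

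In the Il1a and Saa3-led cells H2-DMa was again the only member called by edgeR, beside 0.0792% of all genes, at 1249 and 1438 CPM in control 1 and 4 and at 844, 510 and 567 CPM in the cKO mice (-1.07 ± 0.25, adjusted p = 0.019, edgeR). H2-Eb1 was at 9578 and 9645 CPM against 5577, 4057 and 4402 CPM (-1.03 ± 0.31, adjusted p = 0.14). For both genes the 3 cKO mice lay below the 2 controls, which was not counted over all genes. By limma-voom, given a random effect for each mouse, 6 members were called in these cells and 4 in macrophage-like cells, while DESeq2 called 1 in each and 5 and 2 had an unadjusted p under 0.05 in edgeR. The shares of all genes given for these clusters are those of edgeR's adjusted calls, so the other counts stand without one. In monocyte-like cells limma-voom called 90 of all genes and edgeR 52. The H2-DMa calls were not stable. The 1 in macrophage-like cells was lost in each of the 8 fits without 1 mouse, with adjusted p of 0.059 to 0.38 (edgeR). The 1 in Il1a and Saa3-led cells rested on 2 control mice and was lost in some of these fits. Its log2 change was -1.22 to -0.89 over them. Control 3 and cKO 5 gave no sum in either cluster, and control 2 none in the Il1a and Saa3-led cluster.

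No member was called in dendritic cell-like cells, where 0.0264% of all genes fell. By edgeR 1 member had an unadjusted p under 0.05, DESeq2 called 0 and limma-voom called 3, counts that are not set against all genes. Cd74 was at 28730 ± 2292 CPM (SD, n = 4) in control and 29625 ± 1059 CPM (n = 3) in cKO dendritic cell-like cells, a log2 change of -0.07 with a 95% interval of -0.51 to 0.36. H2-Oa was at 181, 191, 89.5 and 207 CPM against 73.9, 105 and 91.2 CPM, and its change of -1.06 ± 0.30 did not pass (adjusted p = 0.16). Control 3, with 23 such cells, lay among the cKO values.

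No member was called in Cebpb-led cells either (0.0088% of all genes fell; 1 member under an unadjusted p of 0.05, 0 by DESeq2 and 0 by limma-voom). In low-RNA macrophage-like cells 0% of all genes fell in edgeR's test, with 2 members under an unadjusted p of 0.05, 1 called by DESeq2 and 0 by limma-voom. In lymphoid-like cells the figure was likewise 0%, with 3 members under an unadjusted p of 0.05 and 0 by either other tool. Ccr2-led and stromal-like cells had too few sums for a test.

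**Figure D4:**
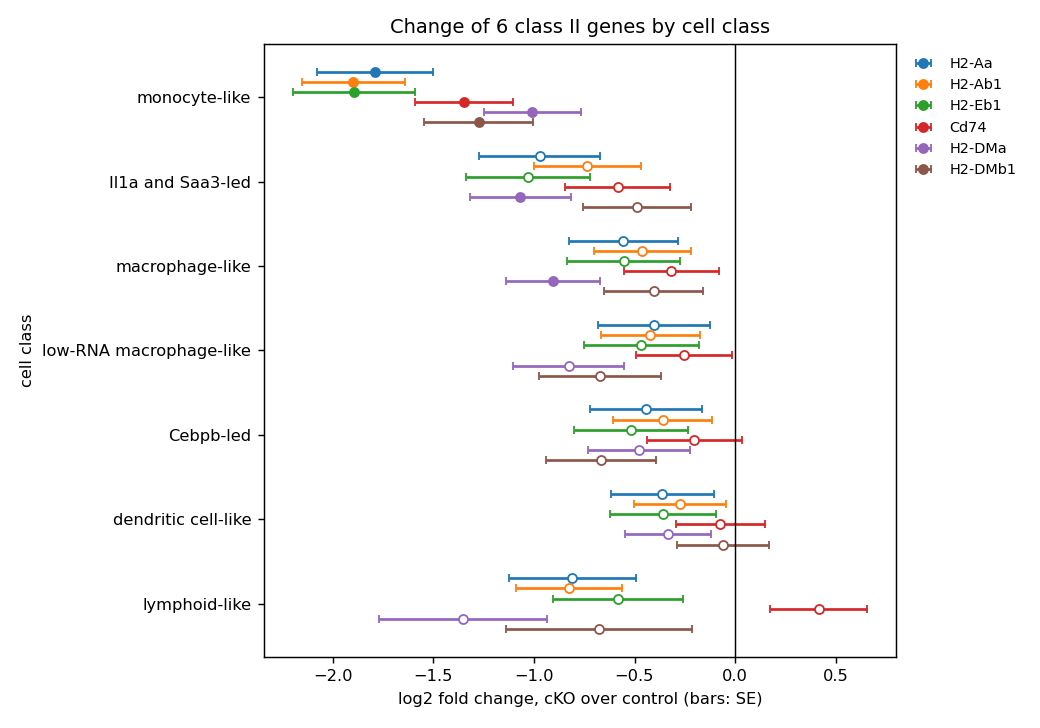
Log2 change, cKO over control, of 6 class II genes within each cluster tested, with bars of 1 standard error on each side. Filled points passed an adjusted p of 0.05 (edgeR) and open points did not, and the filled points stand in monocyte-like (6), macrophage-like (1) and Il1a and Saa3-led cells (1).

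A call in 1 cluster and not in another is no test of their difference, so the change in monocyte-like cells was set against that in each other cluster, in 48 contrasts over the 8 members. A single contrast passed: the log2 change of Cd74 in monocyte-like cells minus that in lymphoid-like cells was -1.76 ± 0.34 (adjusted p = 0.034, edgeR), beside 0.0176% of all genes in either direction. Cd74 in lymphoid-like cells was at 0.42 ± 0.24 (adjusted p = 0.81), and in the plasma cell-like cells of that cluster at 6569 CPM pooled in control and 10049 CPM in cKO. Against dendritic cell-like cells the difference for H2-Ab1 was -1.62 (adjusted p = 0.087). Against macrophage-like cells the lowest adjusted p of any member was 0.34, and against Il1a and Saa3-led cells 1.0, so a larger change in monocyte-like cells than in these was not shown. This fit takes the sums of 1 mouse in several clusters as independent, and the contrasts were not run with a term for the mouse.

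The spread between single monocytes was measured after each cell was thinned to 1000 UMIs, with 53, 29 and 51 control and 78, 143 and 97 cKO cells. The share of monocyte-like cells with an H2-Aa UMI was 50.9%, 41.4% and 41.2% in the controls and 14.1%, 9.79% and 27.8% in the cKO mice, or 44.5% ± 5.58 (SD, n = 3) against 17.2% ± 9.42. The share with an H2-DMa UMI was 45.4% ± 7.40 against 27.5% ± 2.99, with an H2-Eb1 UMI 37.3% ± 10.3 against 13.6% ± 7.21, and with an H2-DMb1 UMI 27.6% ± 6.92 against 12.2% ± 3.86. These 4 members did not overlap between groups, beside 8.16% of the 2354 genes measured this way, and each had p = 0.1 in a two-sided exact permutation test over mice, the smallest that 3 mice against 3 allow. With cKO 5, which had 17 monocyte-like cells, the groups overlapped for H2-Aa and H2-Eb1. The difference was -16.9 points for H2-Aa (SD of the 4 cKO mice 22.2, p = 0.26, exact permutation test) and -19.7 points for H2-Eb1 (p = 0.086, exact permutation test). Only H2-DMa (-17.4 points) and H2-DMb1 (-14.0 points) stayed apart, each with p = 0.029 (exact permutation test), the smallest that 3 mice against 4 allow. How many of all genes stay apart with this set of mice was not counted.

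H2-Ab1 and Cd74 overlapped. Cells with an H2-Ab1 UMI were 69.8%, 62.1% and 33.3% in the controls and 21.8%, 20.3% and 41.2% in the cKO mice (p = 0.2, exact permutation test), and cells with a Cd74 UMI 73.6%, 58.6% and 49.0% against 41.0%, 46.2% and 51.5% (p = 0.2, exact permutation test). Control 4 was low and cKO 8 high for both genes. Ly6c2, the monocyte marker, was in 57.2% ± 4.19 of control and 81.9% ± 7.85 of cKO monocyte-like cells.

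Shares from 1 UMI reach into the background. H2-Ab1 UMIs were found in 44.6% of control and 33.3% of cKO stromal-like cells, and in 40.4% and 36.8% of T or innate lymphoid-like cells, thinned alike (median UMIs before thinning 4823 and 5186, and 2642 and 2788). The H2-Ab1 shares of control 4, cKO 6 and cKO 7 were at or below those and are read as background. H2-Aa UMIs were found in 15.8% to 30.8% of these cells, so its shares in cKO 6 and cKO 7 are read as background too. In cKO 8, the only cKO mouse with enough T or innate lymphoid-like cells of its own, 11.5% of those cells and 27.8% of monocyte-like cells had an H2-Aa UMI, the latter at the pooled cKO stromal-like share of 27.8%. H2-Eb1 UMIs were found in 26.2% of control and 16.7% of cKO stromal-like cells, and in 30.8% and 5.26% of T or innate lymphoid-like cells. Its mean share of 13.6% in cKO monocyte-like cells thus reaches into the background. H2-DMa UMIs were found in at most 7.69% of stromal-like or T or innate lymphoid-like cells.

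From 3 UMIs upward the background was small, with 0% of stromal-like and at most 1.92% of T or innate lymphoid-like cells for H2-Ab1, and at most 5.77% of either for Cd74. By that measure 37.7%, 20.7% and 15.7% of control monocyte-like cells carried H2-Ab1, and 1.28%, 2.098% and 7.22% of cKO cells. Cd74 at 3 UMIs or more was in 43.4%, 37.9% and 21.6% against 10.3%, 16.1% and 26.8%, so that cKO 8 lay above control 4. Thus a minority of cells carried H2-Ab1 above background in the 3 control mice measured. The share was lower in the 3 cKO mice measured, and those of cKO 6 and cKO 7 were close to the highest background share. Mice with under 20 monocyte-like cells are not covered. How many of all genes keep the groups apart from 3 UMIs upward was not counted.

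The cells of 1 mouse were unequal. The variance of H2-Ab1 UMIs over monocyte-like cells was 4.33, 4.02 and 8.81 times its mean in the controls and 2.17, 1.59 and 7.21 times in the cKO mice, where counting alone gives a ratio near 1. For Cd74 it was 14.0, 11.996 and 18.7 times against 4.09, 4.36 and 14.7 times, and for H2-DMa only 0.98 to 2.32 times in all 6 mice. B2m, an evenly carried gene, had 1.49 to 1.91 times and Lyz2, an abundant lysozyme of these cells, 5.93 to 12.8 times. The highest H2-Ab1 count in a cell was 14, 9 and 17 UMIs in the controls and 6, 4 and 19 in the cKO mice, so the top cell of all 6 mice was in cKO 8, whose median cell had none.

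The same cells tended to carry several members. Across the monocyte-like cells of a mouse, Pearson's r of H2-Aa with H2-Ab1 was 0.32 to 0.80 (median of 6 mice 0.68) and of H2-Ab1 with Cd74 0.28 to 0.79 (median 0.62). For H2-Ab1 with H2-DMa the median was 0.25, and with Ly6c2 r was -0.49 to -0.01. With B2m it was -0.26 to 0.13. These are descriptions over cells that share a library, and thinned counts this low hold r down.

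**Figure D5:**
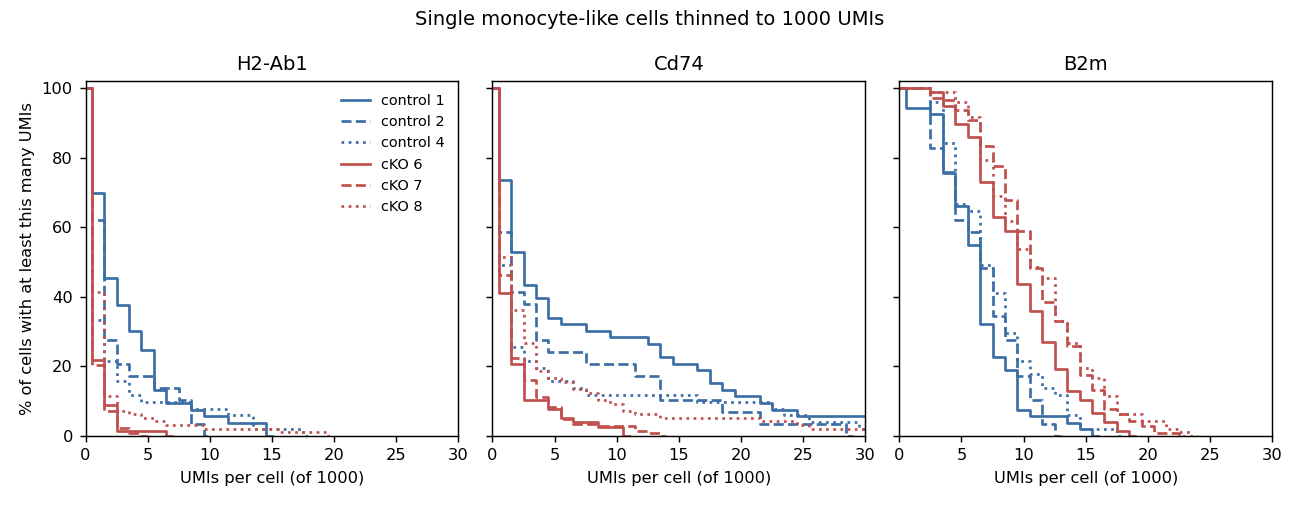
Share of monocyte-like cells (%) with at least a given number of UMIs of H2-Ab1, Cd74 or B2m after thinning to 1000 UMIs per cell, with 1 line per mouse; the axis ends at 30 UMIs. The cKO 6 and 7 lines for H2-Ab1 end by 6 UMIs, while cKO 8 keeps a tail that reaches 19 UMIs, and for B2m the cKO lines lie to the right of the control lines.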

How the data were processed

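The authors deposited 1 matrix of raw UMI counts per gene and cell barcode, not normalized, made from 10x Genomics 3′ v2 libraries of 8 mice captured on 1 cartridge. The submitters' processing notes name Cell Ranger, STAR 2.5.3a, R 3.5.0 and mm10. Barcodes were assigned to mice by the library label in their names. Cells were clustered with scran 1.30.0 (Ward, 9 clusters, 11789 genes, 158 genes left out). Clusters were named by fixed markers among the 10 leading genes or, failing that, by leading genes. The Ccr2-led cluster met the monocyte rule but was named by its leading gene. UMIs were summed per mouse, and per mouse and cluster with at least 20 cells. Genes at more than 1 CPM in at least 3 sums and found in at least 20 cells were tested with edgeR 4.0.16 (quasi-likelihood, TMM, Benjamini-Hochberg over all genes, two-sided), with 1 fit over all clusters. The script was tested on simulated data. DESeq2 1.42.0 and limma 3.58.1 were alternatives. Scrublet doublet calls were kept in the main analysis. Intervals are 1.96 standard errors on each side. All 8 members, Slc3a2, called list genes (at most 5 per list) and the 5 genes most like H2-Ab1 and Ciita (at least 10 CPM) were named, and some items of these lists are not reported here. Members, lists and markers were chosen with earlier results of these data known. Each mouse is 1 animal, so the p-values for all cells summed and of the permutation tests rest on spread between animals. Those within clusters rest on a spread estimated over the sums of all clusters, with several sums per mouse. The fit over all clusters has no mouse term, so sums of 1 mouse from different clusters enter as independent; limma-voom had one.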

Additional observations from a re-analysis of the deposited data

Results flagged for a closer look

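In the controls, the summed H2-Aa level of control 3 (8642 CPM) stood far below that of the other 3 mice (10878 to 11057 CPM), by Dixon's criterion for 4 samples. Chance alone gives such a result in about 1 of 20 groups, and 22 groups of 4 mice were checked. Control 3 had 85 cells, and without it H2-Aa, H2-Ab1, H2-Eb1 and H2-Oa were still called lower in the cKO mice.

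The change of Cd74 differed between cell classes by a contrast of the same edgeR fit, at -1.76 on the log2 scale for monocyte-like minus lymphoid-like cells. The lymphoid-like cluster holds 112 T or innate lymphoid-like, 58 plasma cell-like and 13 other cells. Pooled over mice, Cd74 was at 6569 CPM in control and 10049 CPM in cKO plasma cell-like cells.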

How the results depend on the processing

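In all cells summed, 7 members were called lower. Leaving out 1 mouse at a time gave 4 to 8, with 4 without control 1, and H2-Aa, H2-Ab1, H2-Eb1 and H2-Oa were called in each such fit. In monocyte-like cells, 6 members were called, against 3 with clustering on all genes and 3 to 6 without 1 mouse, with 3 without control 1 or without cKO 6. The calls in the other clusters (2) were the least stable, with 5 when no filter on low counts was used, 1 without doublet calls, 1 with sums of at least 10 cells, 13 by limma-voom, given a random effect for each mouse, and 0 to 3 without 1 mouse. Calls over all genes are not given beside these counts. The count of members whose shares of monocyte-like cells did not overlap was 4, against 2 with no thinning, 2 when mice with at least 10 cells were used, and 4 to 6 without 1 mouse. How many of all genes did so under these alternatives was not counted. The share with an H2-Oa UMI changed sign from -1.15 to 0.344 percentage points when cells were thinned to 500 UMIs, and that with a Ciita UMI from -1.54 to values between -2.49 and 0.344 without 1 mouse. Both rest on single UMIs. The cause of the other shifts was not tested. The mean monocyte-like level was below the macrophage-like level for all 8 members in each alternative run on levels. Over all genes, 510 were called in all cells summed, against 787 with no filter on low counts and 145 to 712 without 1 mouse, and 52 in monocyte-like cells, against 82 by DESeq2, 128 with no filter, 90 by limma-voom, 95 with the cluster fitted alone, 32 with clustering on all genes and 33 to 57 without 1 mouse. Of 264 gene values under the other alternatives, 243 were unchanged, 15 lost and 4 gained a call, 1 turned and 1 moved. For tests with an adjusted p, unchanged means the same direction and side of the threshold. For shares of cells, and for tests without an adjusted p, it means only that the direction did not turn. For class levels it means no turn and a shift below 1 SD. No paired analysis was possible because the control and cKO mice are separate animals and no label pairs them. Depth limits H2-Oa and Ciita in monocyte-like cells, where each mouse gave at most 3 UMIs.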
